A study of Mus musculus with 10 samples.

Results

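Spinal cord RNA of male C57BL/6 mice, an inbred laboratory strain, was compared between 8 and 4 weeks of age by RNA sequencing. The comparison takes the libraries coded M in the deposited data, 3 at 8 weeks and 2 at 4 weeks, which is 5 of the 10 libraries of the series. The other 5 libraries are female cords of the same strain, 3 at 8 weeks and 2 at 4 weeks, and serve here only to show where males differ. The labels distinguish the 4 groups by sex and age, and name no treatment, transgene or mutation for any of them. The labels number the replicates without saying whether each came from its own animal, and the p-values thus reflect variation among the deposited samples alone, part or all of which may be technical. The comparison asks which genes differ in the male cord between these ages.

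The spinal cord carries long axons wrapped in myelin, a lipid-rich membrane made by oligodendrocytes. Myelin holds much cholesterol, which the nervous system makes itself because cholesterol in blood does not pass the blood-brain barrier. Between 4 and 8 weeks a mouse passes through puberty and reaches young adulthood, and the oligodendrocyte lineage moves from forming myelin towards maintaining it. The cord lies in bone and muscle, with fat and blood-forming marrow close by, so a dissected cord can carry RNA of those tissues.

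Total counts ranged from 8534183 to 11594610 in the male libraries. The labelled tissue was checked against markers of position: the caudal Hox genes, which are active in cord and silent in the forebrain, summed to 543 to 711 CPM (counts scaled to a common library size) in the male libraries. The 8 listed forebrain genes summed to 4.58 to 7.84 CPM there. Among them Emx2 had 0 counts in every male library, while Neurod6 had 40 and 37 counts at 4 weeks and 35, 31 and 44 at 8 weeks. Replicates were not equally close. The chi-square per degree of freedom between the 4-week male libraries was 11.88, against 3.9 to 6.06 between pairs of 8-week male libraries. A first principal component over the male libraries held 52.4% of the variance and placed 4-week library 1 at -45.1, 4-week library 2 at -15.9 and the 8-week libraries at 15 to 23.4. Libraries therefore separated by age, and 4-week library 1 stood farthest out.

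Male libraries of both ages also held transcripts of organs outside the cord, and these are described before the other results. The 11 listed genes of adrenal cortex, the gland that makes corticosteroids, summed to 133.1 and 99.78 CPM in the 4-week male libraries. They summed to 10.29 to 11.69 CPM in the 8-week male libraries and to 9.7 to 12.62 CPM in the 5 female libraries. Hsd3b1 (Entrez Gene 15492), an enzyme of steroid synthesis, had 283 and 265 counts at 4 weeks and 0, 1 and 0 counts at 8 weeks. The ratio of its counts per depth was 799, with an exact 95% interval of 143 to 31600 that covers counting error only. Pnmt, the adrenaline-forming enzyme of adrenal medulla, had 32 and 24 counts at 4 weeks and none at 8 weeks, which makes it at least 27.2-fold higher at 4 weeks against a floor of 3 counts over the 8-week group. Th and Chga, also made in medulla but shared with neurons, were tested with adjusted p of 0.458 and 0.258. Both 4-week males thus held adrenal transcripts, and no other library did at that level.

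Lung transcripts were in 2 of the 3 male 8-week libraries. The 14 listed genes of lung epithelium summed to 943.2 CPM in 8-week library 2 and 109.3 CPM in library 3, against 3.43 CPM in library 1 and 5.05 to 11.3 CPM at 4 weeks. Sftpc, a surfactant protein of alveolar cells, had 3459 counts in 8-week library 2, 454 in library 3 and 1 in library 1. Scgb1a1, the secretory protein of airway club cells, had 2443, 340 and 0 counts in the same libraries. The 3 libraries of the 8-week group overlapped those of the 4-week group for every lung gene tested, and none of the 11 was called by edgeR or limma-voom; 10 had an unadjusted p under 0.05 in edgeR and 2 were called by DESeq2. Prx, periaxin of Schwann cell myelin, was also low in 8-week library 2, at 20.62 CPM, against 100.3 and 100.1 CPM in libraries 1 and 3 and 99.41 and 69.98 CPM at 4 weeks.

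Summed levels of muscle and fat transcripts were lower at 8 weeks in the male libraries. The 12 skeletal muscle genes summed to 2014 and 511.1 CPM at 4 weeks and to 65.65 to 153.3 CPM at 8 weeks. The 8 fat genes summed to 172.1 and 290.5 CPM at 4 weeks and to 7.86 to 12.46 CPM at 8 weeks. In females the muscle sums were 702.7 and 645.2 CPM at 4 weeks and 39.52 to 150.5 CPM at 8 weeks, a shift of the same direction. The female fat sums overlapped between ages, at 279.8 and 38.7 CPM at 4 weeks and 16.74 to 49.88 CPM at 8 weeks. In a bulk sample, fewer cells of a type and less RNA per cell cannot be told apart.

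**Figure D1:**
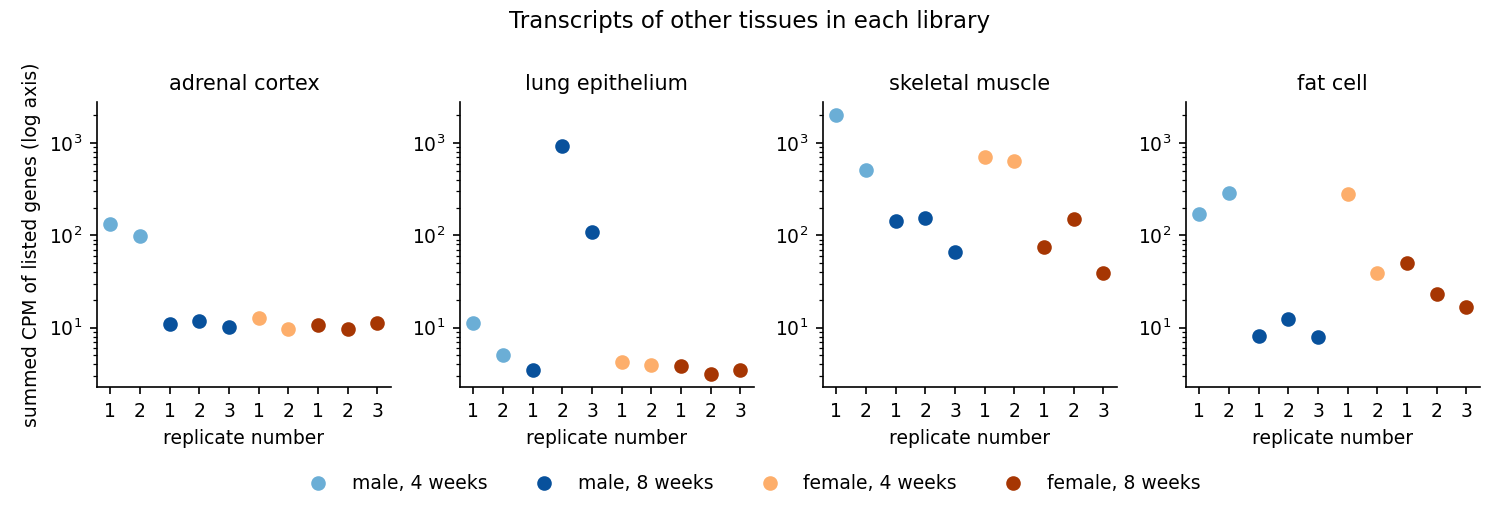
Summed CPM (log axis) of the listed genes of 4 outside tissues in each of the 10 libraries, numbered by replicate and coloured by sex and age. Adrenal cortex is high in both male 4-week libraries, lung epithelium in male 8-week libraries 2 and 3, and muscle is above all 8-week libraries in every 4-week library.

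In the test over all genes, the quasi-likelihood F test of edgeR (p-values adjusted by Benjamini-Hochberg), 501 of 15540 genes that passed the filter on low counts (of 26301 listed) differed between 8 and 4 weeks at an adjusted p under 0.05. These are the genes termed called here, and they are 3.22% of those tested. More genes fell than rose: 371 were lower at 8 weeks (2.39%) and 130 were higher (0.837%). Falls were also larger, with a median log2 fold change of -0.92 among genes called lower and 0.36 among genes called higher. Past 2-fold there were 174 lower genes and 5 higher genes. The median over all tested genes was 0.004. For comparison, 14.8% of all tested genes had their 3 values at 8 weeks all above both values at 4 weeks, and 15.2% had them all below.

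The female libraries gave an independent set of the same ages. In them 226 genes were called (1.45%), 37 higher (0.238%) and 189 lower (1.22%). Both sexes called 152 genes with the same sign, which is 30.3% of the male calls and 67.3% of the female calls, and no gene was called with opposite signs. Of the 371 genes lower in males, 362 had the same sign in females and 141 were called there, with a female median of -0.60. Of the 130 genes higher in males, 114 had the same sign in females and 11 were called there, with a female median of 0.11. Both contrasts come from 1 fit with a common spread. When each sex was fitted alone, 161 of 163 genes called in males with a female value had the same sign, against 64.9% of all 15002 genes in both fits.

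The difference between the sexes was tested directly as an interaction, and 2 genes passed, Cyp11a1 and Star, both adrenal genes high in male 4-week libraries (edgeR, 0.0129% of tested genes). At an unadjusted p under 0.05 the interaction held 749 genes. No gene of a cord list was called for a different age effect in males.

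**Figure D2:**
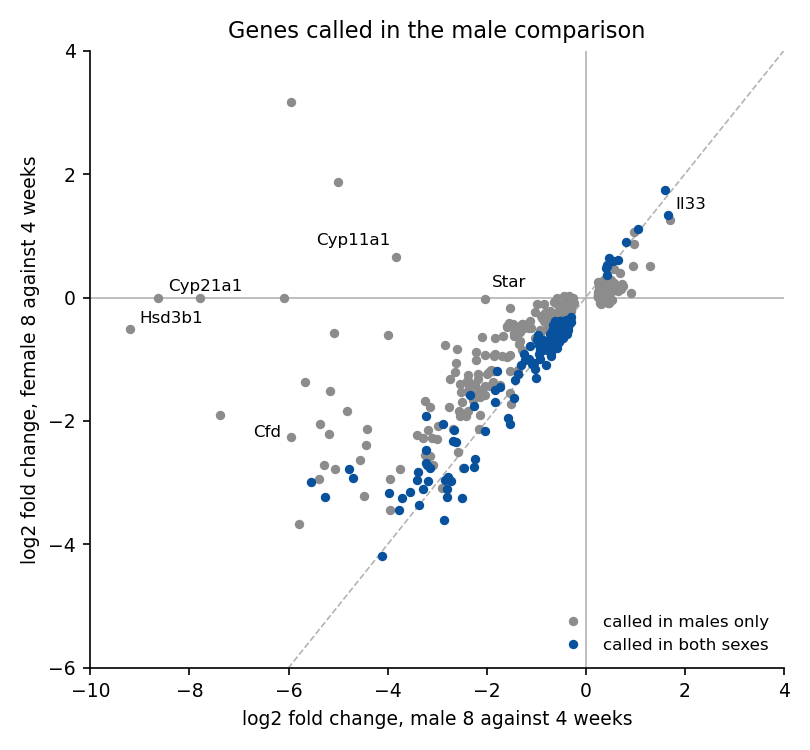
Log2 fold change from 4 to 8 weeks in males (horizontal) and females (vertical) for the 501 genes called in males; the dashed line marks equal change. Most genes lie at the lower left, called in both sexes (blue) or in males only (grey), while Hsd3b1, Cyp21a1, Cyp11a1 and Star fall in males and lie between -0.51 and 0.65 in females.

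The calls varied with the libraries used. Without 8-week libraries 2 and 3, which leaves 1 library at 8 weeks against 2, 15 genes were called, 2 higher and 13 lower, and all 15 were among the 501. They included the adrenal genes Hsd3b1, Cyp11b1, Cyp11a1, Cyp21a1 and Star, the myelin genes Ugt8a, Mal and Cldn11, the lipid genes Elovl1 and Aacs, and Gsn, Il33 and Sfrp5. Leaving out 1 male library at a time gave 247 calls without 4-week library 1, 1199 without 4-week library 2, and 239, 188 and 258 without 8-week libraries 1, 2 and 3. Without female 8-week library 1 the number was 301. Of 135 called genes followed through these alternatives, 27, 16 and 13 lost their call without female 8-week libraries 1, 2 and 3, which enter the male test only through the shared estimate of spread. In a fit with a muscle score as covariate, 103 genes were called and 46 of them were among the 501. The score was the mean log2 CPM of the 12 skeletal muscle genes, centred over the libraries. That score ran from 1.19 to 3.19 in the 4-week libraries of both sexes and from -2.37 to -0.63 in the 8-week libraries, so age and muscle RNA cannot be told apart in that fit. Among the genes described here, Cldn11, Cyp11a1, Cyp11b1, Cyp21a1, Hsd3b1, Il33, Mal, Star and Ugt8a were called under all 19 alternatives.

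Il33 (Entrez Gene 77125) had the firmest rise. It encodes interleukin-33, a cytokine of the interleukin-1 family that is kept in the nucleus and released from damaged cells. Its level was 53.39 and 47.32 CPM at 4 weeks and 171.7, 159.8 and 144 CPM at 8 weeks. All 8-week libraries lay far above both 4-week libraries, with a log2 fold change of 1.66 (SE 0.12, edgeR adjusted p = 2.42e-05). The female log2 fold change was 1.34 (edgeR adjusted p = 0.000311). With 8-week libraries 2 and 3 left out the male value was 1.77 (edgeR adjusted p = 0.00171), as large as with them.

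Other genes rose in both sexes with smaller steps. Pkd2l1, a cation channel of the neurons that contact the cerebrospinal fluid at the central canal, went from 13.49 and 14.03 CPM to 23.1, 28.34 and 21.69 CPM (log2 fold change 0.82, SE 0.15, edgeR adjusted p = 0.0139). Its adjusted p was 0.0608 without 4-week library 1 and 0.0519 without 8-week library 2. Pkp4, plakophilin-4, a protein of cell junctions, went from 443.6 and 491.6 CPM to 605.6, 676.3 and 660.9 CPM, with a log2 fold change of 0.47 (SE 0.07, edgeR adjusted p = 0.00498). Sez6l2, a neuronal membrane protein, went from 407.5 and 464.7 CPM to 581.1, 612 and 569.1 CPM (log2 fold change 0.43, edgeR adjusted p = 0.00857, and 0.0508 without 4-week library 1). Male 4-week and 8-week values did not overlap for any of these genes, as for all 130 genes called higher in males. All 3 were called in females too, which was a ground for naming genes and adds no separate support. Neat1, a long noncoding RNA that builds nuclear paraspeckles, rose from 142.8 and 135.7 CPM to 179.7, 240.2 and 233.1 CPM (log2 fold change 0.65, edgeR adjusted p = 0.0203). It was called in females, but in males its adjusted p was 0.0596 to 0.087 without 4-week library 1, 8-week library 2 or 8-week library 3. Qdpr, which regenerates the cofactor tetrahydrobiopterin, had a log2 fold change of 0.54 (edgeR adjusted p = 0.0297, and 0.0702 without 4-week library 2, 0.09 without 8-week library 1 and 0.0819 without 8-week library 2). Gab2, a signalling adaptor, had 0.44 (edgeR adjusted p = 0.035). Its call was lost without 4-week library 1 (0.212), 8-week library 1 (0.053), library 2 (0.121) or library 3 (0.105). A pair of RIKEN transcripts without a known role, A230001M10Rik and 1700063D05Rik, had log2 fold changes of 1.06 and 1.61 in males and 1.12 and 1.74 in females, all called.

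Arl4d, Sfrp5, Serpind1, Pcolce2 and Eno4 were called higher in males and not in females. Arl4d, a small GTPase of the Arf-like family, went from 10.26 and 9.59 CPM to 25.39, 28.56 and 19.73 CPM (log2 fold change 1.31, SE 0.22, edgeR adjusted p = 0.00773). In females its values were 8.65 and 7.6 CPM at 4 weeks and 13.11, 13.6 and 7.9 CPM at 8 weeks, which overlap. The interaction for Arl4d had an edgeR adjusted p of 0.97, so a difference between the sexes was not shown. Sfrp5, a secreted inhibitor of Wnt signalling, went from 10.96 and 10.02 CPM to 27.47, 17.54 and 16.74 CPM, with 8-week library 1 the highest (log2 fold change 0.97, edgeR adjusted p = 0.0297). Its adjusted p was 0.0827 without 4-week library 1, 0.0661 without 4-week library 2 and 0.0546 without 8-week library 1. Serpind1, heparin cofactor II, an inhibitor of thrombin, had a log2 fold change of 0.98 (edgeR adjusted p = 0.0487) and lost its call without any 1 of the 5 male libraries (0.0501 to 0.124). Pcolce2, an enhancer of procollagen processing, had 0.95 (edgeR adjusted p = 0.0336, and 0.108 without 4-week library 2, 0.0785 without 8-week library 1 and 0.12 without 8-week library 2). Eno4, an enolase-like gene, had 0.92 at an edgeR adjusted p of 0.0468, which was 0.0604 to 0.205 without 4-week library 1, 4-week library 2, 8-week library 1 or 8-week library 2.

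Most enzymes of cholesterol synthesis were lower at 8 weeks. Of 20 listed enzymes of the pathway from acetyl-CoA to cholesterol, 19 were tested, 12 were lower at 8 weeks and none was higher. The median log2 fold change of the 19 was -0.44 in males and -0.46 in females, against 0.004 over all genes tested in males. All 19 had every 8-week male library below both 4-week libraries, a pattern that 15.2% of all tested genes showed. Hmgcs1, the remaining member, was listed at 0 in all libraries and could not be tested. Summed over the list, levels were 2789 and 2650 CPM at 4 weeks and 2000, 2027 and 1898 CPM at 8 weeks.

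Promoter sequences of 3 called members are shown because the list moved together and their genes share the CCAAT box, the binding sequence of the factor NF-Y. They run from 250 bases before to 50 bases after the transcription start and come from RefSeq on build GRCm38.p6, read 5′ to 3′ along the gene. Capitals mark CCAAT on the strand shown or its reverse complement ATTGG.
Cyp51, chr5:4104648-4104947, minus strand: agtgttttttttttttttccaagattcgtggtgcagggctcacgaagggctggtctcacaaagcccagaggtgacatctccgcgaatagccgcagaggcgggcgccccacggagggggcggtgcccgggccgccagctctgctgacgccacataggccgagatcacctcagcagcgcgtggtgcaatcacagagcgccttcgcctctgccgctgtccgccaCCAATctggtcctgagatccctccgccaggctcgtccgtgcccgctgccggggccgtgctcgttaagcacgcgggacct
Msmo1, chr8:64733529-64733828, minus strand: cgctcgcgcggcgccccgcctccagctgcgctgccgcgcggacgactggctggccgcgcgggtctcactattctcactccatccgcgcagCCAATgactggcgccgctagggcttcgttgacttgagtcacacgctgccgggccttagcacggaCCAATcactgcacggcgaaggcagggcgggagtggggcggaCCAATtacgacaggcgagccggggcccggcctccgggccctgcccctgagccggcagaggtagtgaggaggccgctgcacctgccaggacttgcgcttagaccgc
Mvd, chr8:122443373-122443672, minus strand: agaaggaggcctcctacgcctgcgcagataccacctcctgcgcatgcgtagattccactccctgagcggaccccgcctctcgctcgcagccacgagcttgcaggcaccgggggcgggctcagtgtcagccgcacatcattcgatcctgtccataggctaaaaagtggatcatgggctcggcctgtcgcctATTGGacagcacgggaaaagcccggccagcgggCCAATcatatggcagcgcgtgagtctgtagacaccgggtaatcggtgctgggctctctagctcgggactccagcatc

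Of the listed enzymes, 15 had an entry in the promoter table, and 14 of these (93.3%) held CCAAT on either strand in at least 1 window. Over all 27025 genes in that table the share was 41.1%. The sterol regulatory element spelled TCACCCCAC, searched on both strands, was found in 1 of the 15, Hmgcs1, against 0.614% of all genes. These matches describe letters in the window and no binding was measured.

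Cyp51 (Entrez Gene 13121), lanosterol demethylase, fell from 397.7 and 362.7 CPM to 249.2, 246.3 and 245.1 CPM (log2 fold change -0.62, SE 0.06, edgeR adjusted p = 0.00025). The 8-week libraries lay within a narrow band well below both 4-week libraries. Sqle, squalene epoxidase, which makes the first oxygenated step towards sterols, fell from 272.4 and 243.1 CPM to 179.9, 180.9 and 159.6 CPM (log2 fold change -0.57, SE 0.08, edgeR adjusted p = 0.00208). Further called members were Mvd, Fdps, Lss, Msmo1, Hsd17b7, Ebp, Sc5d and Dhcr7, with log2 fold changes from -0.66 for Lss to -0.32 for Sc5d. Uncalled members ran from -0.72 for Idi1 (SE 0.19) to -0.16 for Fdft1 (SE 0.08).

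Single libraries changed how many enzymes passed. The number called was 8 without 4-week library 1, 13 without 4-week library 2, 7 without 8-week library 1, 7 without 8-week library 2 and 8 without 8-week library 3. It was 0 with the muscle score as covariate, where the median was -0.31. Without both lung-bearing libraries, which leaves 1 library at 8 weeks, the median was -0.415, against -0.437 with all libraries. Cyp51, Sqle, Mvd and Dhcr7 were called with any 1 library left out. Uptake, export and sensing of cholesterol gave fewer calls: 2 of 15 such genes were called, both lower, with a median of 0.001. Npc2, which carries cholesterol out of lysosomes, had a log2 fold change of -0.45 (edgeR adjusted p = 0.0195). Npc2 was not called without 4-week library 1 (0.141), 8-week library 1 (0.053) or 8-week library 3 (0.0648).

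Among 23 tested genes of mature oligodendrocytes and myelin, 11 were lower at 8 weeks and none was higher, with a median log2 fold change of -0.40 in males and -0.47 in females. Of the 23, 19 had all 8-week male libraries below both at 4 weeks, a pattern that 15.2% of all tested genes showed. Ugt8a (Entrez Gene 22239), which makes the myelin lipid galactosylceramide, fell from 1077 and 1170 CPM to 502.8, 513.7 and 529.2 CPM. Its log2 fold change was -1.12 (SE 0.06, edgeR adjusted p = 2.23e-06), and -0.79 in females. Mal, a protein of myelin lipid rafts, fell from 2039 and 2258 CPM to 1060, 1064 and 999.9 CPM (log2 fold change -1.05, SE 0.08, edgeR adjusted p = 2.42e-05). For both genes the 8-week libraries lay close together and far below the 4-week pair. Cldn11, which forms the tight junctions of the myelin sheath, fell from 1434 and 1518 CPM to 828.2, 785.2 and 751.9 CPM (log2 fold change -0.90, SE 0.08, edgeR adjusted p = 8.41e-05). Ugt8a, Mal and Cldn11 kept their calls in all alternatives, but the list did not: 4 of the 23 were called with the muscle score as covariate, where the median was -0.17. Without 8-week libraries 2 and 3 the median was -0.383, against -0.398 with all libraries.

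The other called genes of the list spanned structural proteins and lipid enzymes. Mbp, myelin basic protein, was 33640 and 33420 CPM at 4 weeks and 22420, 22720 and 22310 CPM at 8 weeks (log2 fold change -0.58, SE 0.06, edgeR adjusted p = 0.000536). Mog, Cnp and Mag, also parts of the sheath, had log2 fold changes of -0.78, -0.58 and -0.40. Fa2h and Gal3st1, which hydroxylate and sulfate myelin lipids, had -0.55 and -0.69. Mobp had -0.50 (edgeR adjusted p = 0.0294), and its adjusted p was 0.0615 to 0.102 without 4-week library 2 or any 8-week male library. Not every gene of the lineage moved this way. Car2, carbonic anhydrase II, had a log2 fold change of 0.28 (edgeR adjusted p = 0.14) with all 8-week libraries above those at 4 weeks, and was called higher in females (0.42). Myrf, a transcription factor that drives myelin genes, had -0.03 (SE 0.12) with overlapping libraries. Anln had -0.16 in males and 0.32 in females, and its interaction was not called.

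**Figure D3:**
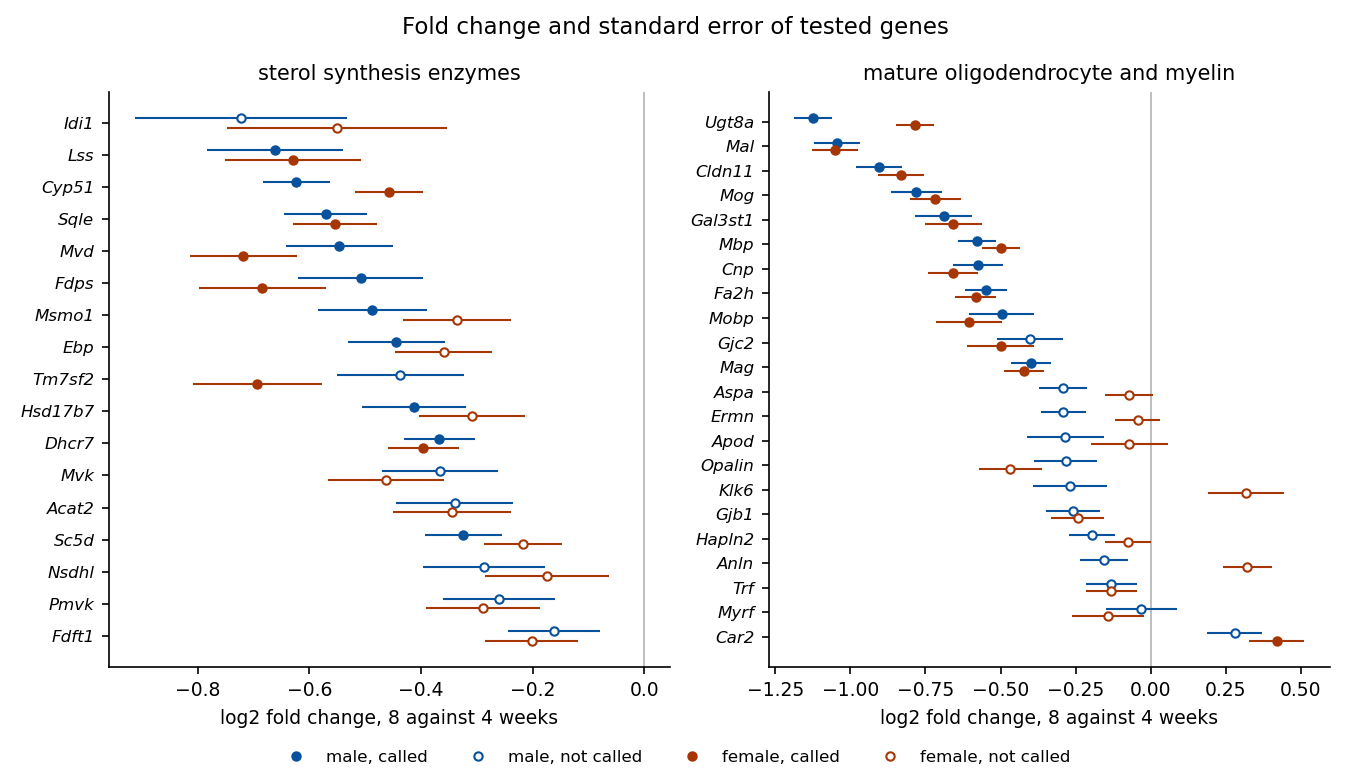
Log2 fold change from 4 to 8 weeks (points) with its standard error (bars) for tested sterol synthesis genes (left) and myelin genes (right), males in blue and females in brown; filled points were called. In males every sterol gene shown and all myelin genes shown but Car2 lie below 0.

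Calls for earlier stages of the lineage differed between newly forming and precursor genes, whose lists are shorter than the myelin list. Among 13 genes of newly forming oligodendrocytes, 5 were lower, none was higher and 8 were not called, with a median of -0.34. Of the 13, 7 had all 8-week male libraries below both at 4 weeks and 2 had them above, against 15.2% and 14.8% of all tested genes. Without 4-week library 1 the median was -0.55, against -0.29 for the myelin list. Without 4-week library 2 it was -0.25, against -0.41 for the myelin list. With the muscle score as covariate 3 members were called and the median was -0.501. With any 1 male library left out, 3 to 7 were called. Without 8-week libraries 2 and 3 the median was -0.452, against -0.344 with all libraries. Gpr17, a receptor of committed precursors, fell from 138.4 and 172.1 CPM to 90.73, 91.21 and 95.2 CPM (log2 fold change -0.75, SE 0.10, edgeR adjusted p = 0.00269). The noncoding 9630013A20Rik fell from 21.68 and 32.59 CPM to 9.99, 9.93 and 10.38 CPM, with a log2 fold change of -1.44 (SE 0.16, edgeR adjusted p = 0.000532). Both had 8-week libraries close together and far below the 4-week pair. Sirt2 and Fyn had -0.54 and -0.33, and Enpp6, a choline phosphodiesterase of cells starting to myelinate, had -0.84. Fyn was not called without 4-week library 2 or any 8-week male library (0.0537 to 0.0773), and Enpp6 not without 4-week library 2 (0.0603), 8-week library 2 (0.0745) or library 3 (0.0516). None of 12 precursor genes was called by edgeR, DESeq2 or limma-voom, 7 had an unadjusted p under 0.05 in edgeR, and their median was -0.24. Pdgfra, the growth factor receptor of precursors, had -0.29 (SE 0.09, edgeR adjusted p = 0.1).

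Among 27 tested genes of cell division, 9 were lower at 8 weeks and none was higher, against 2.39% of all tested genes called lower. The median log2 fold change was -1.17 in males and -0.76 in females. Of the 27, 18 had all 8-week male libraries below both at 4 weeks, against 15.2% of all tested genes. Top2a, a topoisomerase of dividing cells, fell from 15.34 and 11.85 CPM to 4.27, 3.64 and 3.83 CPM (log2 fold change -1.79, SE 0.26, edgeR adjusted p = 0.00372). Mki67, a proliferation marker, fell from 29.64 and 22.66 CPM to 6.45, 5.18 and 11.32 CPM (log2 fold change -1.75, SE 0.36, edgeR adjusted p = 0.0231). Mki67 was not called without 4-week library 1 (0.103), 8-week library 1 (0.0881) or 8-week library 2 (0.0968). Ube2c, Birc5, Cenpe, Rrm2, Ccna2, Kif11 and Tpx2 were the others, at -2.22 to -0.93. The number called was 3 without 4-week library 1 and 14 without 4-week library 2, and 4, 5 and 8 without 8-week libraries 1, 2 and 3. It was 5 with male libraries alone and 0 with the muscle score as covariate, where the median was -0.74. Without 8-week libraries 2 and 3 the median was -1.157, against -1.173 with all libraries. Marrow genes, which come from dividing blood precursors, moved with this list: the 12 neutrophil genes summed to 642.7 and 301.2 CPM at 4 weeks and to 133.6 to 228.2 CPM at 8 weeks. Their part in the fall of cell division genes was not tested.

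Genes of muscle, blood, bone and fat were among those called lower. All 12 skeletal muscle genes were lower, with a median of -3.33 in males and -2.95 in females. Acta1, skeletal actin, was 491.8 and 127.8 CPM at 4 weeks and 30.07, 41.91 and 15.99 CPM at 8 weeks (log2 fold change -3.41, SE 0.53, edgeR adjusted p = 0.00514). The 4-week libraries differed widely from each other and both lay above all 8-week libraries. Of 12 neutrophil genes 8 were lower, of 8 erythroid genes 6, of 7 lymphoid genes 4, of 12 cartilage and bone genes 5 and of 8 fat genes 5, and none was higher. Over all tested genes, 2.39% were called lower. Myeloperoxidase, Mpo, was 15.91 and 11.59 CPM at 4 weeks and 2.39 to 4.77 CPM at 8 weeks (log2 fold change -2.03, edgeR adjusted p = 0.0195, and 0.078 to 0.0901 without 4-week library 1 or 8-week library 1 or 2). Acp5, the acid phosphatase of bone-resorbing osteoclasts, was 43.71 and 19.52 CPM at 4 weeks and 1.04, 0.88 and 1.59 CPM at 8 weeks (log2 fold change -4.70, SE 0.44, edgeR adjusted p = 0.000234). Cfd, adipsin of fat cells, had -5.96 (edgeR adjusted p = 0.00958, and 0.0537 without 8-week library 1). Neutrophil calls fell from 8 to 1 without 4-week library 1, 1 without 8-week library 1 and 0 without 8-week library 2. With 1 male library left out in turn, erythroid calls ran from 1 to 8, lymphoid from 1 to 4, cartilage and bone from 3 to 6 and fat from 2 to 6. The muscle genes make up the muscle score, so the loss of their calls with that covariate was fixed in advance. With the muscle score as covariate the only calls among these 6 lists were 2 fat genes. Without 8-week libraries 2 and 3 the medians were -3.002 (muscle), -1.638 (neutrophil), -1.175 (erythroid), -1.951 (lymphoid), -1.146 (cartilage and bone) and -5.975 (fat). With all libraries they were -3.33, -1.499, -1.235, -1.731, -0.955 and -5.172, in that order.

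Among 20 tested collagen and matrix genes, 7 were lower and none higher in males, against 2.39% of all tested genes called lower. Their male median was -0.52. All 8-week male libraries lay below both at 4 weeks for 12 of the 20, against 15.2% of all tested genes. In females 9 were lower, against 1.22% of all tested genes, with a median of -0.64. Col1a1 (Entrez Gene 12842), the main collagen of bone and other connective tissue, was 457 and 211.2 CPM at 4 weeks and 92.5, 56.25 and 64.99 CPM at 8 weeks (log2 fold change -2.23, SE 0.27, edgeR adjusted p = 0.00124). Postn, periostin, a matrix protein of growing connective tissue, was 28.48 and 16.99 CPM at 4 weeks and 1.87, 3.09 and 1.68 CPM at 8 weeks (log2 fold change -3.36, SE 0.38, edgeR adjusted p = 0.000673). The female value of Postn was -3.37. Col1a2, Col3a1, Col5a1 and Col5a2 had -2.03, -1.45, -1.24 and -1.22. Fap, a fibroblast protease at under 4 CPM, had -2.50 (edgeR adjusted p = 0.0487) and was not called without 4-week library 1 or any 8-week male library (0.0747 to 0.229). Calls numbered 13 without 4-week library 2 and 6 or 7 without any other male library. Muscle sums moved with this group, and with the muscle score as covariate none of the 20 was called and the median was -0.08. Without 8-week libraries 2 and 3 the median was -0.599, against -0.52 with all libraries.

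Growth genes of the imprinted and insulin-like group gave 3 calls among 16, against 3.22% of all tested genes. H19, an imprinted noncoding RNA of fetal and young tissue, was 99.64 and 22.83 CPM at 4 weeks and 6.24, 6.62 and 12.9 CPM at 8 weeks (log2 fold change -2.80, SE 0.49, edgeR adjusted p = 0.0101, and 0.0537 and 0.0561 without 8-week libraries 1 and 2). With the muscle score as covariate the log2 fold change of H19 was -0.35 (edgeR adjusted p = 0.856). In limma-voom its adjusted p was 0.0548. Cdkn1c, an imprinted brake on the cell cycle, fell from 77.84 and 66.93 CPM to 34.13, 39.81 and 35.63 CPM (log2 fold change -0.99, SE 0.13, edgeR adjusted p = 0.00167). Igfbp5, a binding protein of insulin-like growth factors, rose from 140.8 and 153.4 CPM to 206.9, 217.7 and 180.3 CPM. Its log2 fold change was 0.45 (edgeR adjusted p = 0.0299), and the adjusted p was 0.145 without 4-week library 1, 0.0786 without 8-week library 1 and 0.109 without 8-week library 2.

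The genes called in the lists of channels, inhibitory neurons and excitatory neurons were all higher at 8 weeks. Among 12 ion channel genes of fast-firing axons, 3 were higher and none lower, against 0.837% of all tested genes called higher. The median of the channel list was 0.25 in males and 0.10 in females. Hcn2, a pacemaker channel, was 359.9 and 361.3 CPM at 4 weeks and 434.7, 479.6 and 433.2 CPM at 8 weeks (log2 fold change 0.32, SE 0.07, edgeR adjusted p = 0.0363). In females Hcn2 was 482.9 and 439 CPM at 4 weeks and 419.2, 451.7 and 464 CPM at 8 weeks, so both female 4-week libraries were within or above the male 8-week range. The interaction had an edgeR adjusted p of 0.97. Kcnab2, a potassium channel subunit, had 0.24 (edgeR adjusted p = 0.0464). Hcn2 was not called without 4-week library 1 or any 8-week male library (0.0592 to 0.13), nor Kcnab2 without any 1 male library (0.0544 to 0.164). Slc32a1, the vesicular transporter of inhibitory transmitters, and Dlg4, the postsynaptic scaffold PSD-95, each had 0.30 (edgeR adjusted p = 0.0299 and 0.0237). Both lost their calls without 4-week library 1 or any 8-week male library (0.0568 to 0.148). The list of channels held 0 to 4 calls with 1 male library left out. It held 0 with male libraries alone and 0 with the muscle score as covariate, where the median was -0.05. Without 8-week libraries 2 and 3 the median was 0.137, against 0.248 with all libraries. Slc32a1 and Dlg4 were the only calls among 10 inhibitory and 13 excitatory genes, and none of 13 motor neuron genes was called by edgeR, DESeq2 or limma-voom (3 at an unadjusted p under 0.05 in edgeR).

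Among 13 tested caudal Hox genes, which set position along the cord, 4 were higher in the 8-week males and none was lower. The median was 0.37 in males and 0.12 in females. Of the 13, 8 had all 8-week male libraries above both at 4 weeks, a pattern that 14.8% of all tested genes showed. Hoxc10, of the lumbar cord, was 41.51 and 38.69 CPM at 4 weeks and 61.08, 62.86 and 73.03 CPM at 8 weeks (log2 fold change 0.71, SE 0.10, edgeR adjusted p = 0.00372). Hoxb8 was 164.8 and 164.5 CPM at 4 weeks and 213.8, 216.4 and 214.2 CPM at 8 weeks (log2 fold change 0.38, SE 0.06, edgeR adjusted p = 0.00616). Neither gene overlapped between ages in males, nor did any of the 130 genes called higher. In females Hoxc10 was 49.62 and 54.1 CPM at 4 weeks and 57.93, 52.08 and 61.47 CPM at 8 weeks, with overlap, and its interaction was not called (edgeR adjusted p = 0.97). Hoxb9 and Hoxa10 had 0.37 and 0.45, and lost their calls without 8-week library 2 (0.058 and 0.0566), Hoxb9 also without 4-week library 1 (0.0566) and Hoxa10 without 8-week library 1 (0.0585). Of the 13, 2 to 4 were called with any 1 male library left out and 1 with male libraries alone. With the muscle score as covariate 0 were called and the median was 0.362. Without 8-week libraries 2 and 3 the median was 0.329, against 0.373 with all libraries. The stretch of cord taken for each library is not given in the sources used here.

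**Figure D4:**
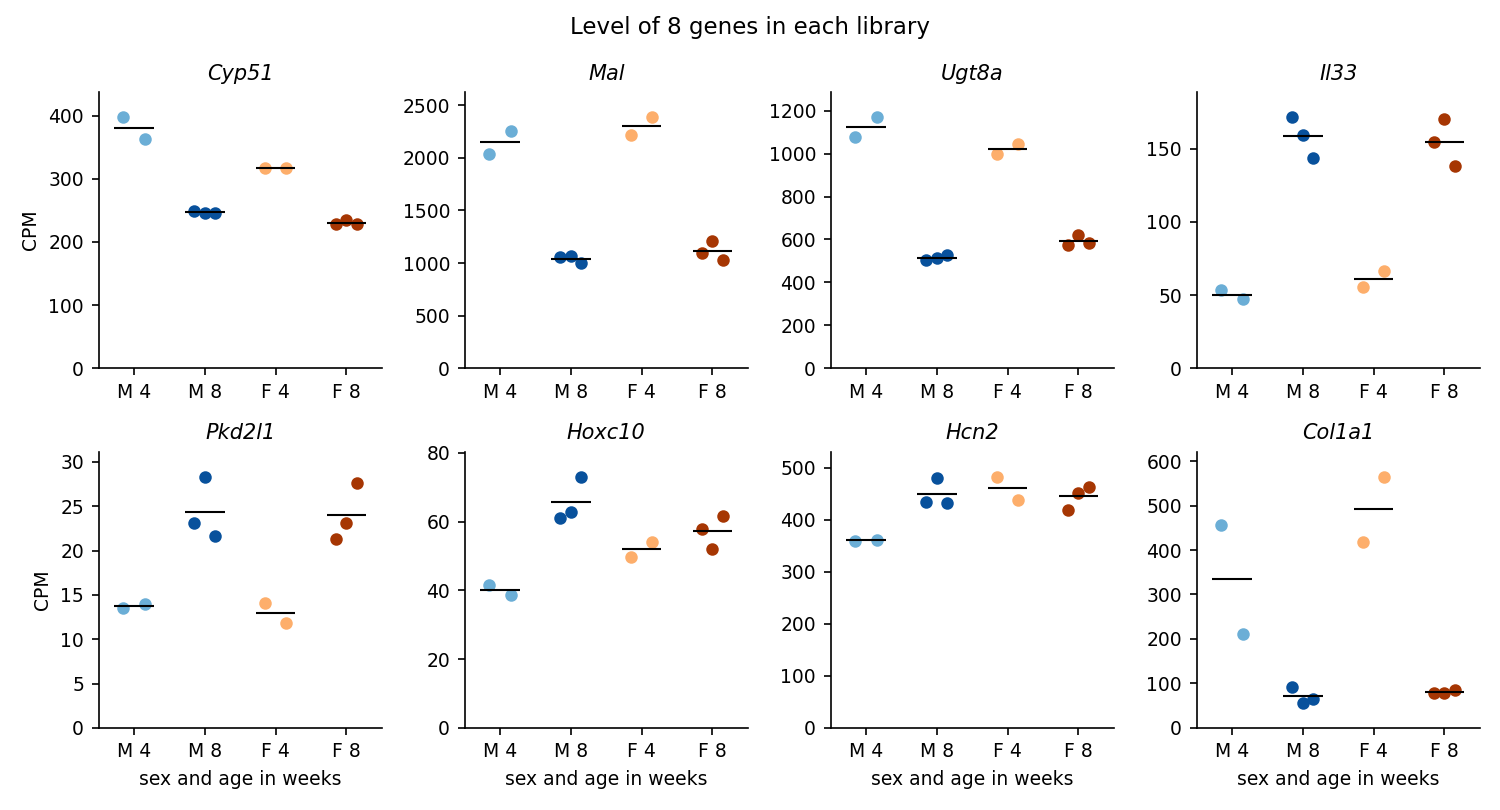
CPM of 8 genes in each library (points) with the group mean (line), males (M) and females (F) at 4 and 8 weeks, axes starting at 0. Cyp51, Mal, Ugt8a and Col1a1 are lower and Il33 and Pkd2l1 higher at 8 weeks in both sexes, while for Hcn2 and Hoxc10 the male 4-week libraries are the lowest group.

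Few genes of other cord cell types were called. Among 18 microglia genes none was called by edgeR, DESeq2 or limma-voom, 2 had an unadjusted p under 0.05 in edgeR, and the median was -0.04. Among 18 astrocyte genes, Glul, which makes glutamine from glutamate, was higher (1284 and 1369 CPM at 4 weeks; 1889, 1691 and 1636 CPM at 8 weeks; log2 fold change 0.39, edgeR adjusted p = 0.0183, and 0.0902 without 4-week library 1). In the perineuronal net, the sugar-rich coat of some neurons, Hapln4 was higher (0.41, edgeR adjusted p = 0.0182) and Ncan lower (-0.37, edgeR adjusted p = 0.0281). Hapln4 was not called without 4-week library 1, 8-week library 2 or library 3 (0.0537 to 0.105), nor Ncan without any 1 male library (0.0515 to 0.128). Marcksl1, which shapes the actin skeleton of growing neurites, fell from 183.6 and 167.6 CPM to 106.4, 109.7 and 98.75 CPM (log2 fold change -0.74, SE 0.09, edgeR adjusted p = 0.00148), and its relative Marcks had -0.42 (0.0628 without 4-week library 1). Abcb1a, a drug efflux pump of vessels, was called higher at an edgeR adjusted p of 0.0487, and Rsad2, an interferon-induced gene, lower at 0.0438. Abcb1a was not called without any 1 male library (0.0515 to 0.205), nor Rsad2 without 4-week library 1 or any 8-week male library (0.105 to 0.268).

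Genes tied to sex and steroids gave few calls over these weeks of puberty. Srd5a1, the reductase that turns testosterone and progesterone into their reduced forms, fell from 51.78 and 53.07 CPM to 27.37, 28.12 and 26 CPM (log2 fold change -0.95, SE 0.09, edgeR adjusted p = 0.000288). The female value was -0.91 (edgeR adjusted p = 0.000799). It was the 1 call among 12 genes of steroid receptors and metabolism. Of 4 tested Y-linked genes, Eif2s3y, a translation factor, had -0.58 (edgeR adjusted p = 0.0314, and 0.0515 to 0.154 without 4-week library 1 or any 8-week male library). Ddx3y, Kdm5d and Uty had -0.08, -0.21 and -0.25 with overlapping libraries. None of 12 genes of the glucocorticoid response was called by edgeR, DESeq2 or limma-voom, and 0 had an unadjusted p under 0.05 in edgeR.

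**Figure D5:**
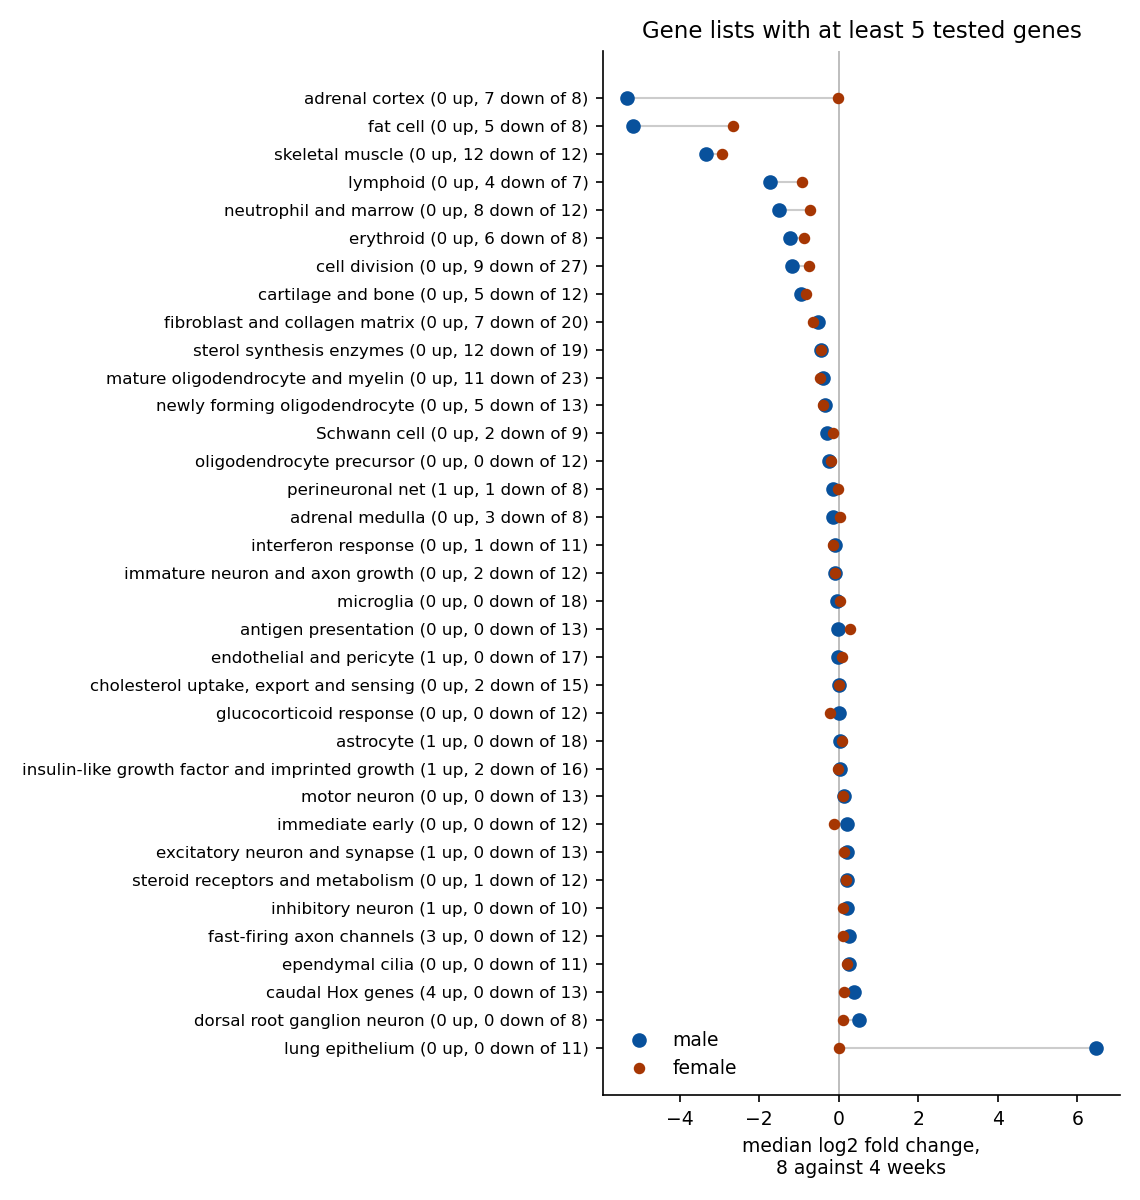
Median log2 fold change from 4 to 8 weeks of each gene list with at least 5 tested genes, males in blue and females in brown, with the male calls in each direction in the label. Outside tissues take the extremes, with adrenal cortex at -5.34 and lung epithelium at 6.48 in males and both near 0 in females; sterol and myelin lists lie at -0.44 and -0.40.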

How the data were processed

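Spinal cord RNA of 10 libraries was sequenced, and the authors deposited raw read counts per Entrez Gene identifier, 1 file per library with 26301 identifiers. Per the submitters' processing notes, TopHat2 2.1.0, featureCounts and build mm9 were used. The sources used here give no strand setting, annotation or counting options, and counts of overlapping and near-identical genes are uncertain. Symbols came from a RefSeq table of GRCm38.p6 (24191 identifiers matched). Male 8 against 4 weeks was tested on the deposited counts in R 4.3.3 (edgeR 4.0.16): 4 group means, all 10 libraries, TMM scaling, filterByExpr (minimum count 10, minimum total 15), 6 residual degrees of freedom, quasi-likelihood F test, Benjamini-Hochberg adjustment over 15540 genes. CPM are counts scaled by the total of tested genes in the library times its TMM factor, computed here. On simulated counts the test called 93% of genes changed by a log2 of 1 and 31% of those changed by 0.5. Named genes were the 8 with the largest change in each direction among called genes at a mean of 1 log2 CPM or more without overlap in males, the 8 largest at 3 log2 CPM or more also called in females, genes called in the interaction, and, from each of 40 gene lists, the 2 of lowest p and the most abundant; other list members were named after their values were seen. Members and lists were chosen with earlier results of these data known. Alternatives were limma 3.58.1 (voom), DESeq2 1.42.0, other size factors, filters, covariates and libraries left out. Replicate numbers were not taken to pair the samples. A few list members are counted but not reported by name here.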

Additional observations from a re-analysis of the deposited data

Results flagged for a closer look

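Star and Cyp11a1, both of steroid synthesis in the adrenal cortex, were the genes whose change with age differed between males and females by a test of the difference itself. Star was 40.59 and 36.17 CPM in the male 4-week libraries, 8.98 to 9.71 CPM in the male 8-week libraries, and 7.84 to 9.36 CPM in the 5 female libraries. Its male change minus its female change was -2.013 on the log2 scale (SE 0.17, edgeR quasi-likelihood adjusted p = 0.000963). Cyp11a1 was 12.45 and 8.54 CPM in the male 4-week libraries, 0.47 to 0.99 CPM in the male 8-week libraries, and 0.6 to 1.15 CPM in the female libraries. Its difference was -4.492 (SE 0.53, edgeR quasi-likelihood adjusted p = 0.0144).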

How the results depend on the processing

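The number of genes called for age in males, 501 (130 higher, 371 lower), was 15 (2, 13) without male 8-week libraries 2 and 3, 103 (29, 74) with the muscle score as covariate and 175 (14, 161) with male libraries alone. With 1 library left out in turn it ran from 188 to 1199, with 29 to 570 higher and 159 to 629 lower. Other size factors, DESeq2, limma-voom and other filters gave 430 to 645. The female number, 226, was 340 without a filter on low counts, 118 without male 8-week libraries 2 and 3, 29 with the muscle score, 398 with female libraries alone and 62 to 394 with 1 library left out. Interaction calls, 2, were 1 by limma-voom, 0 without male 8-week libraries 2 and 3 and 1 to 2 with 1 library left out. The cause of these shifts was not tested. Fits on fewer libraries have fewer residual degrees of freedom, and their male calls lay both below and above 501.

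With the replicate block, a term for the replicate number, 478 genes were called (132 higher, 346 lower), 405 of them among the 501. Same-numbered libraries of the 2 ages in males correlated at 0.122 and -0.08 in their deviations from the group means. Over all 13 same-numbered pairs of the 10 libraries the correlations ran from -0.213 to 0.236, the highest between male and female 8-week library 3, and not every pair was above 0.1, so the numbers were not taken to pair the samples.

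Genes whose direction turned with the muscle score, as log2 fold change, were Acta1 (0.028), Atp2a1 (0.016), Ckm (0.206), Ckmt2 (0.272), Fdft1 (0.112), Hba-a1 (0.01), Hbb-b1 (0.222), Myh4 (0.68), Myl1 (0.197), Th (0.019), Tnnc2 (0.472), Tnni2 (0.484) and Tnnt3 (0.531), none of them called there. Acta1, Atp2a1, Ckm, Myh4, Myl1, Tnnc2, Tnni2 and Tnnt3 are part of the score itself. The loss of their fall in that fit was fixed in advance and says nothing about age. Without male 8-week libraries 2 and 3, Sftpc was at -4.537 and Prx at 0.251. With 1 library left out, the uncalled genes Ddx3y, Kdm5d, Prx and Myrf ran from -0.169 to 0.026, -0.383 to 0.011, -0.476 to 0.249 and -0.23 to 0.221, in that order. In data simulated at these depths and replicate numbers, 31% of genes changed by a log2 of 0.5 were called, so a small change that was not called may have been missed. The changed genes lay above a minimum level, so that share does not cover genes of few counts. Other depths and replicate numbers were not simulated.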
